A study of Homo sapiens with 8 samples.

Results

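The 10 genes described here encode metalloproteases of the ADAM and ADAMTS families: ADAM12, ADAM19, ADAMTS1, ADAMTS2, ADAMTS5, ADAMTS6, ADAMTS12, ADAMTS14, ADAMTS15 and ADAMTS19. They were chosen by name from 40 ADAM and ADAMTS genes, with earlier results on their RNA levels in these same libraries known. The levels below are therefore a description, and the calls support nothing beyond it. All 10 were found among the 60666 gene IDs of the count table, and all 10 were among the 13493 genes that passed the filter on low counts.

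The cells were MRC5, an established line of human lung fibroblasts, and RNA was measured by bulk sequencing in 4 groups of 2 libraries. The groups were shMTHFD2 cells with TGF-β1, shMTHFD2 cells without it, shMock cells with TGF-β1 and shMock cells without it. All carry a hairpin: shMTHFD2 is directed at MTHFD2, an enzyme of mitochondrial folate metabolism, and shMock is the control. TGF-β1 was given as 4 ng, with no volume stated, and the incubation lasted 24 h. The knockdown is 1 hairpin with no rescue, so an effect of lost MTHFD2 and any other difference between the lines cannot be told apart. The genotype field of 3 shMTHFD2 libraries names other genes, the extraction text mentions another cell line and hairpin, and the treatment text stands on controls too. The sample titles gave the groups. Nothing states that libraries of a group came from separate cultures, so the p-values may rest on technical spread alone.

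ADAM proteins are membrane-anchored proteases that release ectodomains of growth factors, receptors and adhesion molecules from the cell surface. ADAMTS proteins are secreted relatives that bind the matrix through thrombospondin repeats. They cut proteoglycans such as versican, trim the propeptides of fibrillar collagens or act on microfibrils. TGF-β1 is a cytokine that drives fibroblasts towards a contractile, matrix-producing state.

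Library totals ran from 18162738 to 22221927 counts. MTHFD2 stood at 93.8 and 91.9 CPM in shMTHFD2 cells with TGF-β1, against 256 and 258 CPM in shMock cells with TGF-β1. Without TGF-β1 it stood at 14.9 and 18.7 CPM in shMTHFD2 cells, against 58.8 and 57.1 CPM in shMock cells. CPM is the count scaled to a common library total, after trimmed-mean scaling. The hairpin's target was thus lower in the shMTHFD2 libraries under both conditions. It was also higher with TGF-β1 in both lines. The 9 fibroblast markers summed to between 30580 and 54250 CPM over the 8 libraries. Of the other cell types' markers, PECAM1 and CDH5 of endothelium, CD3E of T cells and KRT19 of epithelium were at 0 in all 8, and EPCAM, CDH1 and PTPRC reached at most 0.230 CPM. Others were present in every library, among them TEK at 37.2 to 96.0 CPM, KDR at 2.07 to 12.4 CPM, CD68 at 46.8 to 106 CPM and KRT8 at 10.2 to 16.8 CPM.

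Promoter sequences are shown for ADAM12, ADAM19 and ADAMTS6, the 3 members that rose most with TGF-β1 in both lines. Each line gives the 250 bases before the RefSeq start, 5′ to 3′ on the gene's minus strand, from RefSeq on GRCh38.p14. They lie at chr10:126388478-126388727, chr5:157575776-157576025 and chr5:65481921-65482170, in the order printed. Capitals mark matches to the motifs searched.
ADAM12: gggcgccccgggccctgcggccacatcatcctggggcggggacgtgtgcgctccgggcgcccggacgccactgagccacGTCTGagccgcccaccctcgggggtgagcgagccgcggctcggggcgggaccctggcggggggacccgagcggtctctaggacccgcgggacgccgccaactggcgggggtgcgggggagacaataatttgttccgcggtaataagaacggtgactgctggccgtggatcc
ADAM19: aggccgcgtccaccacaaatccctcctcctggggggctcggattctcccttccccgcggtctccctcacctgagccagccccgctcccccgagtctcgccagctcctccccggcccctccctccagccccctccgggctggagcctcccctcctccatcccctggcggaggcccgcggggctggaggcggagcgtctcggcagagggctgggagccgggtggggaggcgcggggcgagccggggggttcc
ADAMTS6: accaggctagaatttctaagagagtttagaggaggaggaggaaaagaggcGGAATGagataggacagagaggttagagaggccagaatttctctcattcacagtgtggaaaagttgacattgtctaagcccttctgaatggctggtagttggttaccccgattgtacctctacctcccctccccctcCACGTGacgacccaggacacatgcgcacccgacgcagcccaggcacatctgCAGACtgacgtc

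RefSeq promoters were matched for 7 of the 10 members: ADAM12, ADAM19, ADAMTS2, ADAMTS6, ADAMTS12, ADAMTS14 and ADAMTS19. Searched on both strands were CAGAC and GTCTAGAC (bound by SMAD proteins, which carry the TGF-β signal to DNA), TGANTCA (AP-1), GGAATG (TEAD), TGATGNAA (ATF4) and CACGTG (E-box). CAGAC and GTCTAGAC share the letters AGAC, but no motif contains another. CAGAC occurred in 4 of the 7, and in 38.0% of all 35116 promoters of the same length. In ADAM12 it covers bases 171 to 167 before the start, read on the opposite strand, and in ADAMTS6 bases 12 to 8. ADAMTS6 also holds GGAATG (11.9% of all promoters) and CACGTG (6.34% of all promoters). The ADAM19 window holds none of the 6 motifs, so no searched motif is in all 3 windows. TGANTCA occurred in 1 of the 7 (ADAMTS12), against 6.57% of all promoters. Neither GTCTAGAC nor TGATGNAA occurred in the 7, and they occur in 0.182% and 3.14% of all promoters. These matches describe letters in a window, and binding was not measured here.

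The make-up of the 10 genes' RNA turned over with TGF-β1 while their summed level stayed close to that in control cells. Levels of different genes are compared here per length, as CPM per kilobase of annotated exon. The sum over the 10 genes was 129.6 and 135.6 CPM per kilobase in shMTHFD2 cells with TGF-β1, against 128.4 and 128.9 CPM per kilobase in shMTHFD2 control cells. In shMock cells the sum was 169.1 and 164.2 CPM per kilobase with TGF-β1, against 172.2 and 160.6 CPM per kilobase in control cells. The libraries of the shMTHFD2 line do not overlap those of the shMock line in this sum, under either condition. The proteoglycan-cleaving enzymes ADAMTS1, ADAMTS5 and ADAMTS15 held on average 17.3% of the sum in shMTHFD2 cells with TGF-β1, against 75.5% in shMTHFD2 control cells. The same enzymes held 19.1% in shMock cells with TGF-β1, against 78.0% in shMock control cells. The membrane-bound ADAM12 and ADAM19 took the opposite course, at 47.7% with TGF-β1 against 5.25% in control in the shMTHFD2 line, and 49.3% against 3.99% in the shMock line. The procollagen N-proteinases ADAMTS2 and ADAMTS14 held 29.0% with TGF-β1 against 16.5% in control in the shMTHFD2 line, and 24.7% against 15.4% in the shMock line. Over all 40 family genes the sum was lower with TGF-β1 in both lines. It was 260.4 and 267.2 CPM per kilobase against 282.3 and 286.8 in control in the shMTHFD2 line. In the shMock line it was 315.8 and 319.1 against 359.5 and 341.4. Of this family sum ADAM12 and ADAM19 held 24.2% and 23.7% with TGF-β1 in shMTHFD2 cells, against 2.38% and 2.37% in control. In shMock cells they held 26.4% and 25.4% against 1.88% and 1.91%. These sums carry no test, and in bulk RNA fewer cells of a type and less RNA per cell cannot be told apart.

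**Figure D1:**
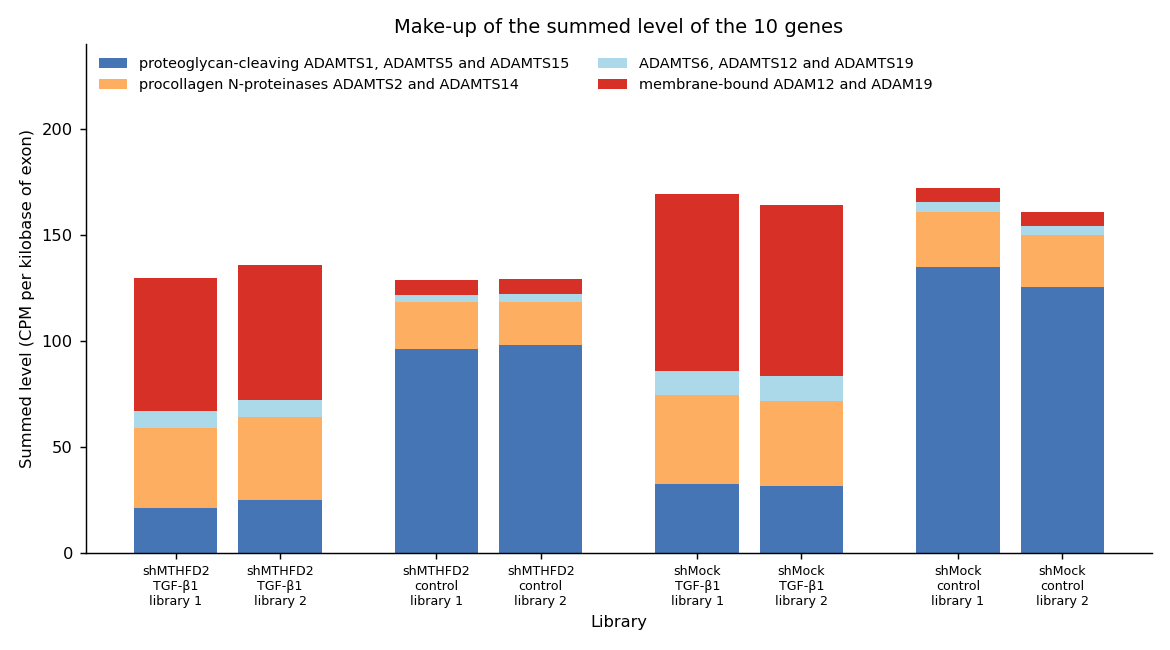
Each bar is 1 library and gives the summed level of the 10 genes in CPM per kilobase of exon, split into 4 groups of enzymes. Bars within a line are of similar height with TGF-β1 and in control (128.4 to 135.6 in shMTHFD2, 160.6 to 172.2 in shMock), while the proteoglycan-cleaving share is large in control and small with TGF-β1.

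The order of the levels changed with the make-up. With TGF-β1, ADAM19 was first in both lines, at 60.3 ± 0.25 CPM per kilobase in shMTHFD2 cells and 79.4 ± 1.3 in shMock cells (SD, n = 2 each), followed by ADAMTS2, ADAMTS1 and ADAMTS5. In control cells ADAMTS1 was first, at 75.5 ± 0.55 CPM per kilobase in shMTHFD2 cells and 109.7 ± 5.96 in shMock cells (SD, n = 2 each). ADAM12 was last in control cells of both lines and ADAMTS19 was last in the TGF-β1 groups of both. Neighbours in these orders had separate libraries except ADAMTS5 and ADAMTS2 in shMTHFD2 control cells, and ADAMTS15 and ADAMTS19 in shMock cells with TGF-β1.

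**Figure D2:**
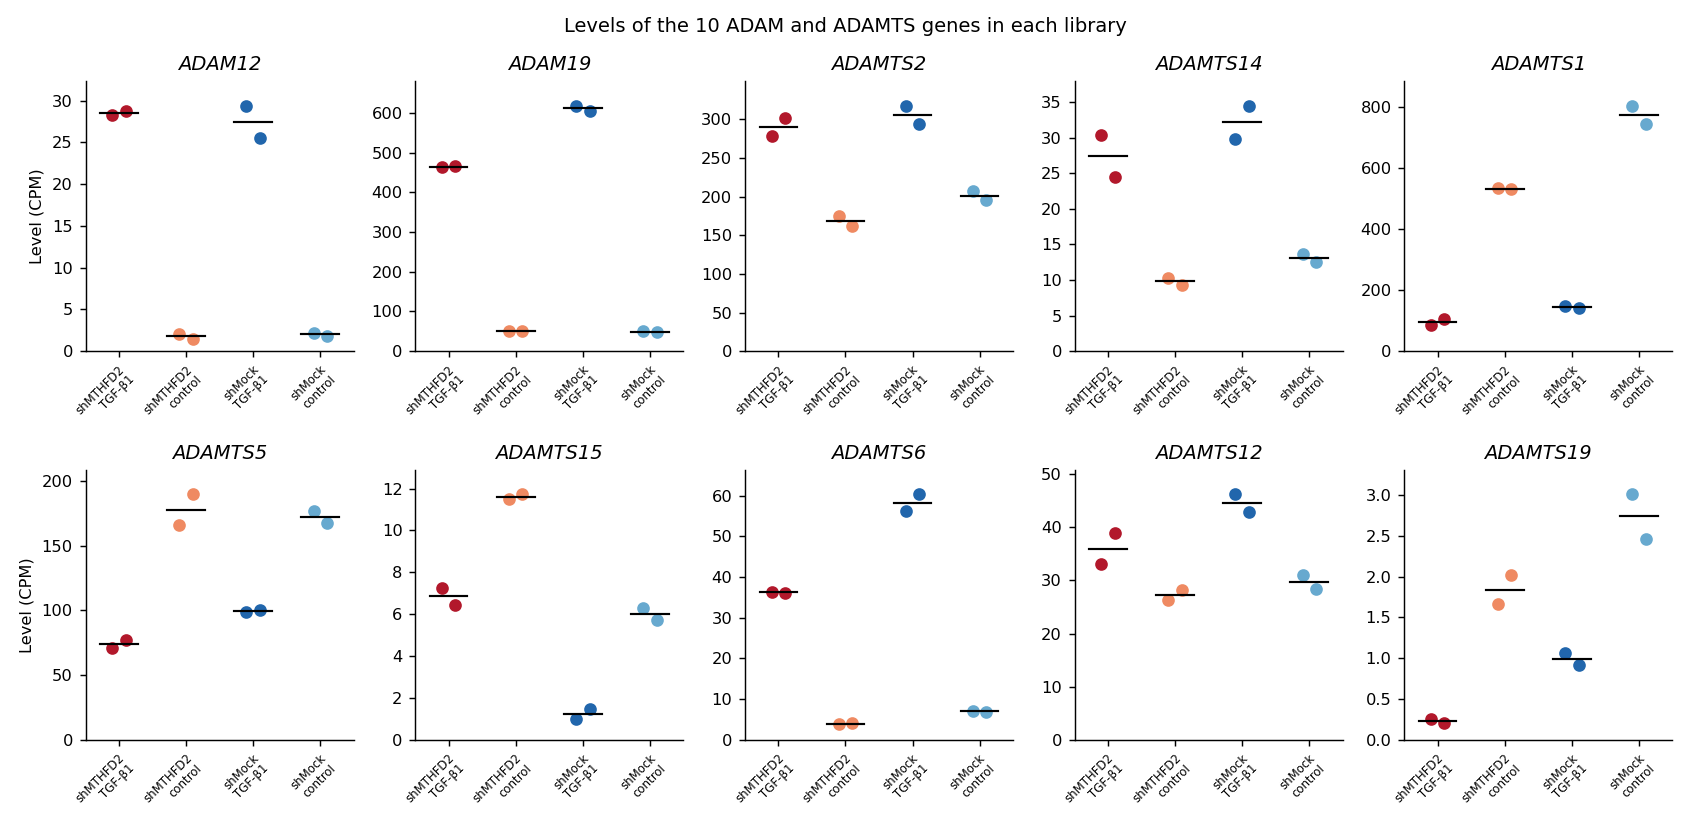
Each panel is 1 gene, and each point is the level in 1 library in CPM on a linear axis from 0, with a bar at the mean of the 2 libraries. ADAM12, ADAM19 and ADAMTS6 are high in the TGF-β1 groups of both lines and ADAMTS1 is high in the control groups, while ADAMTS15 is lowest in shMock cells with TGF-β1 (1.01 and 1.49 CPM) and ADAMTS19 is lowest in shMTHFD2 cells with TGF-β1 (0.255 and 0.203 CPM).

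With TGF-β1, 6 of the 10 genes rose and 4 fell in the shMTHFD2 line, and the same split held in the shMock line. Rising were ADAM12, ADAM19, ADAMTS2, ADAMTS6, ADAMTS12 and ADAMTS14 in both lines, and falling were ADAMTS1, ADAMTS5, ADAMTS15 and ADAMTS19 in both. Calls are at an adjusted p of 0.05 in edgeR's quasi-likelihood test over all 13493 genes. In the shMTHFD2 line 12.8% of all tested genes were called higher and 11.0% lower with TGF-β1. In the shMock line 17.3% were called higher and 18.1% lower. The median log2 fold change of the 10 genes was 0.59 in both lines, beside −0.01 over all tested genes in the shMTHFD2 line and −0.02 in the shMock line.

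Some genes listed as markers of other cell types also moved with TGF-β1 in these fibroblasts. The smooth muscle markers CNN1 and ACTA2, 2 of 4 listed, were called higher in both lines, and the list summed to 881.1 and 908.4 CPM in shMTHFD2 cells with TGF-β1, against 98.9 and 110.2 CPM in shMTHFD2 control cells. In the shMock line it summed to 1351 and 1386 CPM with TGF-β1, against 124.2 and 130.3 CPM in control. Of the other 2 smooth muscle markers, DES was at 0 in all 8 libraries and MYH11 had 0 to 5 counts. The endothelial markers KDR and TEK, 2 of 5 listed, were called lower in both lines, and their list summed to 40.8 and 43.4 CPM in shMTHFD2 cells with TGF-β1, against 96.8 and 104 CPM in shMTHFD2 control cells. In the shMock line it summed to 43.3 and 48.9 CPM with TGF-β1, against 98.9 and 110.1 CPM in control. CD68, 1 of 4 leukocyte markers, was called lower in both lines, at −0.63 on the log2 scale in shMTHFD2 cells and −0.88 in shMock cells. That list summed to 47.2 and 51.1 CPM in shMTHFD2 cells with TGF-β1 against 75.0 and 76.4 CPM in their control, and to 53.5 and 58.6 CPM in shMock cells with TGF-β1 against 101.0 and 106.3 CPM in their control. The epithelial list summed to 25.3 to 37.0 CPM over the 8 libraries, and of it KRT8 was called lower in the shMock line, a call lost under 4 alternatives. The part of these markers in the members' TGF-β1 changes was not tested.

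**Figure D3:**
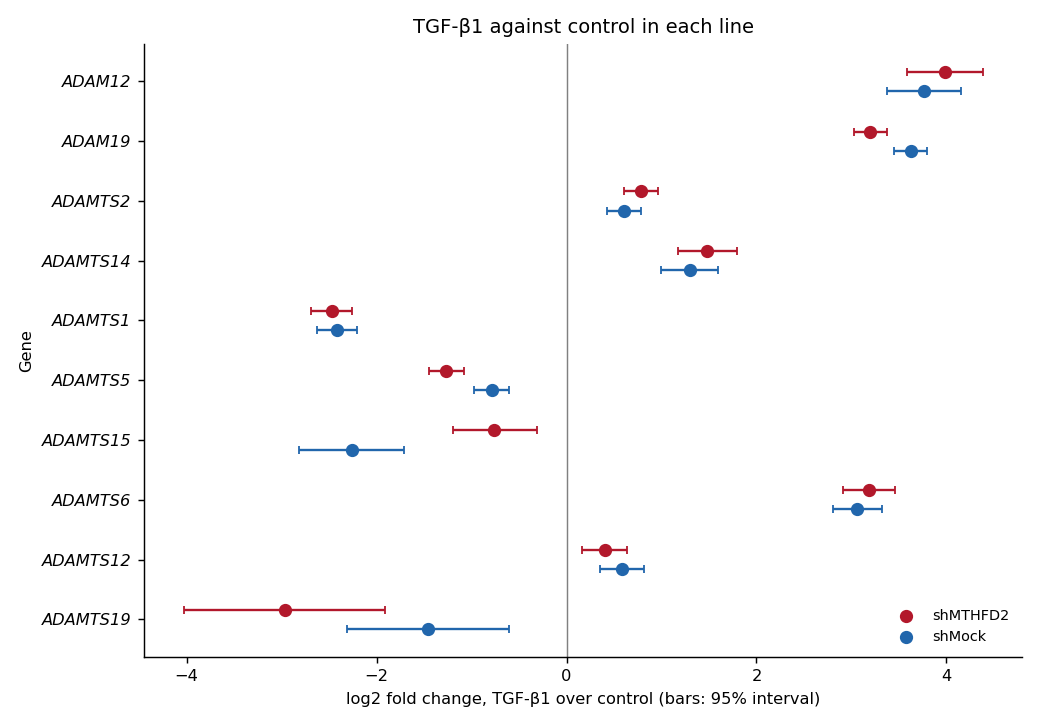
For each gene the point gives the log2 fold change of TGF-β1 over control with its 95% interval from the fit, shMTHFD2 above shMock, and filled points passed the test. All 20 points are filled, the largest increase is that of ADAM12 in shMTHFD2 cells (3.98) and the largest decrease is that of ADAMTS19 in shMTHFD2 cells (−2.97).

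Among the membrane-bound proteases, ADAM12, a myofibroblast-associated sheddase of insulin-like growth factor binding proteins and EGF-family ligands, lies at chr10:126012381-126388455 on the minus strand (GRCh38). It had 28.3 and 28.8 CPM in shMTHFD2 cells with TGF-β1, against 2.08 and 1.50 CPM in shMTHFD2 control cells. In shMock cells it had 29.4 and 25.5 CPM with TGF-β1, against 2.20 and 1.82 CPM in control. Groups with and without TGF-β1 are far apart in both lines, while the lines overlap under both conditions. The log2 fold change with TGF-β1 was 3.98 ± 0.19 (SE) in shMTHFD2 cells and 3.76 ± 0.18 in shMock cells, rank 22 and rank 31 from the highest among all tested genes. Between the lines the log2 difference was 0.06 with TGF-β1 (95% interval −0.25 to 0.36) and −0.16 without (−0.67 to 0.34). Neither passed the test (edgeR adjusted p 0.839 and 0.73).

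ADAM19, a sheddase of neuregulin needed for heart development in mice, lies at chr5:157395534-157575775 on the minus strand. It had 463 and 466 CPM in shMTHFD2 cells with TGF-β1, against 50.1 and 51.2 CPM in shMTHFD2 control cells. The shMock line had 619 and 604 CPM with TGF-β1, against 50.2 and 48.8 CPM in control. The control groups of the lines overlap and the TGF-β1 groups do not. The rise with TGF-β1 was 9.18-fold in shMTHFD2 cells and 12.4-fold in shMock cells. With TGF-β1 it was 0.76 times as high in shMTHFD2 cells as in shMock cells (log2 −0.40 ± 0.07 SE, edgeR adjusted p = 0.00245). Its 3′ end overlaps CYFIP2 on the opposite strand by 62 bases of exon, and no source used here gives the use of strand in counting.

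The procollagen N-proteinases remove the amino-terminal propeptide of fibrillar procollagens before fibrils form. ADAMTS2 (chr5:179110851-179345430, minus strand), the main such enzyme of skin, had 279 and 302 CPM in shMTHFD2 cells with TGF-β1, against 176 and 161 CPM in shMTHFD2 control cells. With the control hairpin it had 318 and 294 CPM with TGF-β1, against 207 and 196 CPM in control. Each TGF-β1 group lies above its control, by 0.79 ± 0.08 on the log2 scale in shMTHFD2 cells and 0.60 ± 0.08 in shMock cells (SE). In control cells both shMTHFD2 libraries lie below both shMock libraries, with a log2 difference of −0.26 that did not pass the test (edgeR adjusted p = 0.0598, 0.0356 to 0.394 over the alternatives tried). ADAMTS14 (chr10:70672803-70762441, plus strand), its close relative, had 30.3 and 24.5 CPM in shMTHFD2 cells with TGF-β1, against 10.3 and 9.30 CPM in shMTHFD2 control cells. In shMock cells it had 29.8 and 34.5 CPM with TGF-β1, against 13.6 and 12.5 CPM in control. Its rise was 2.79-fold in shMTHFD2 cells and 2.46-fold in shMock cells, and the lines overlap with TGF-β1. In control cells both shMTHFD2 libraries lie below both shMock libraries for ADAMTS14 too. That log2 difference of −0.41 did not pass the test (edgeR or DESeq2 adjusted p 0.0769 to 0.386 over the alternatives tried).

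The proteoglycan-cleaving enzymes cut versican and aggrecan. ADAMTS1 (chr21:26835747-26845409, minus strand), also known as an inhibitor of angiogenesis, had 85.8 and 106 CPM in shMTHFD2 cells with TGF-β1, against 536 and 530 CPM in shMTHFD2 control cells. The shMock line had 149 and 141 CPM with TGF-β1, against 805 and 745 CPM in control. It was lower with TGF-β1 in both lines, 5.55-fold in shMTHFD2 cells and 5.35-fold in shMock cells. It was also lower in shMTHFD2 than in shMock cells without overlap, by −0.59 ± 0.10 on the log2 scale with TGF-β1 (edgeR adjusted p = 0.00111) and −0.54 ± 0.09 without (edgeR adjusted p = 0.00154). ADAMTS1 therefore stood lowest in the knockdown cells that also received TGF-β1.

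ADAMTS5 (chr21:26917912-26966513, minus strand), a major aggrecanase of cartilage, is the neighbour of ADAMTS1, 72.5 kb away. It had 70.8 and 77.0 CPM in shMTHFD2 cells with TGF-β1, against 166 and 190 CPM in shMTHFD2 control cells. With the control hairpin it had 99.1 and 100.5 CPM with TGF-β1, against 177 and 168 CPM in control. It fell with TGF-β1 in both lines, 2.41-fold in shMTHFD2 cells and 1.73-fold in shMock cells. The control groups of the lines overlap, while with TGF-β1 the shMTHFD2 libraries are lower (log2 −0.43 ± 0.09 SE, edgeR adjusted p = 0.00464). That call is lost without replicate 1 of shMTHFD2 cells with TGF-β1 (edgeR adjusted p = 0.0585, 0.000126 to 0.0585 over all alternatives).

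ADAMTS15 (chr11:130448974-130476641, plus strand), a versican- and aggrecan-cleaving enzyme, was the only one of the 10 called higher in shMTHFD2 cells. It had 7.25 and 6.46 CPM in shMTHFD2 cells with TGF-β1, against 11.5 and 11.7 CPM in shMTHFD2 control cells. In shMock cells it had 1.01 and 1.49 CPM with TGF-β1, against 6.29 and 5.72 CPM in control. The shMTHFD2 libraries with TGF-β1 stand above the untreated shMock libraries, and the shMock libraries with TGF-β1 stand apart as the lowest. Behind these levels are 142 and 127 counts in shMTHFD2 cells with TGF-β1, against 19 and 26 counts in shMock cells with TGF-β1. Between the lines it was 5.48-fold higher with TGF-β1 (log2 2.45 ± 0.26 SE, edgeR adjusted p = 3.58e-05), rank 5 from the highest of all tested genes. Without TGF-β1 it was 1.93-fold higher (log2 0.95 ± 0.21, edgeR adjusted p = 0.00826). The call without TGF-β1 is lost without replicate 2 of shMock control (edgeR adjusted p = 0.0771) or of shMTHFD2 control (0.0695), in a range of 0.000677 to 0.0771 over all alternatives. TGF-β1 lowered it 1.69-fold in shMTHFD2 cells (edgeR adjusted p = 0.014), a call lost without either shMTHFD2 control library or without replicate 2 of shMTHFD2 cells with TGF-β1 (0.0615, 0.0781 and 0.0915, in a range of 0.00517 to 0.0915). In shMock cells TGF-β1 lowered it 4.80-fold (edgeR adjusted p = 6.23e-06). Its neighbour ADAMTS8, 19980 bases away, stood at 1.23 to 2.51 CPM over the 8 libraries and was called in no comparison.

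The remaining members act on other matrix components or have no settled substrate. ADAMTS6 (chr5:65148736-65481920, minus strand), linked in mice to fibrillin microfibrils and heart development, had 36.4 and 36.2 CPM in shMTHFD2 cells with TGF-β1, against 3.80 and 4.19 CPM in shMTHFD2 control cells. The shMock line had 56.2 and 60.4 CPM with TGF-β1, against 7.10 and 6.85 CPM in control. No groups overlap. It rose with TGF-β1 by 3.19 ± 0.13 on the log2 scale in shMTHFD2 cells and by 3.06 ± 0.12 in shMock cells (SE). It was lower in shMTHFD2 than in shMock cells by −0.68 ± 0.10 with TGF-β1 (edgeR adjusted p = 0.000577) and −0.81 ± 0.14 without (edgeR adjusted p = 0.00199), so that both the basal and the treated level lay lower in the knockdown line.

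ADAMTS12 (chr5:33523535-33892192, minus strand), a protease that cleaves the cartilage matrix protein COMP, had the smallest rise of the 6 rising members in both lines. In shMock cells it was close to ADAMTS2. It had 33.1 and 38.9 CPM in shMTHFD2 cells with TGF-β1, against 26.3 and 28.1 CPM in shMTHFD2 control cells. With the control hairpin it had 46.2 and 42.8 CPM with TGF-β1, against 31.0 and 28.4 CPM in control. It rose by 0.40 ± 0.11 on the log2 scale with TGF-β1 in shMTHFD2 cells (SE, edgeR adjusted p = 0.0143) and by 0.59 ± 0.11 in shMock cells (0.00066). In shMTHFD2 cells the call is lost with library totals in place of scaling factors (0.0627), without replicate 1 of control (0.107) and without replicate 2 with TGF-β1 (0.171), in a range of edgeR or DESeq2 adjusted p of 0.0064 to 0.171. Between the lines it passed the test in neither condition, at −0.31 with TGF-β1 (95% interval −0.54 to −0.08) and −0.12 without (−0.36 to 0.11).

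ADAMTS19 (chr5:129460265-129738683, plus strand), named in human heart valve disease, had the lowest mean level of the 10 in both TGF-β1 groups. It had 5 and 4 counts in shMTHFD2 cells with TGF-β1, against 36 and 39 counts in shMTHFD2 control cells. In shMock cells it had 20 and 16 counts with TGF-β1, against 67 and 50 counts in control. These are 0.255 and 0.203 CPM in shMTHFD2 cells with TGF-β1, against 1.07 and 0.918 CPM in shMock cells with TGF-β1, where a floor of 3 counts corresponds to 0.135 to 0.172 CPM over the 8 libraries. The level with TGF-β1 was thus just above the floor in shMTHFD2 cells. It was 4.24-fold lower than in shMock cells (log2 −2.09 ± 0.53 SE, edgeR adjusted p = 0.018), rank 15 from the lowest of all tested genes. This call is lost without replicate 1 of shMock cells with TGF-β1 (0.0912), without replicate 1 (0.0667) or replicate 2 (0.0941) of shMTHFD2 cells with TGF-β1, and DESeq2 gave no adjusted p for it. In the fit of only the 4 libraries compared it fell below the filter. Over the alternatives that gave one, the adjusted p ran from 0.0109 to 0.0941. With TGF-β1 it was lower by −2.97 ± 0.50 in shMTHFD2 cells and −1.46 ± 0.40 in shMock cells on the log2 scale (SE). The shMock call (edgeR adjusted p = 0.01) is lost without replicate 1 of shMock control (0.0642) or replicate 2 of shMock cells with TGF-β1 (0.0637), in a range of 0.00516 to 0.0642. Its exons overlap the opposite-strand ADAMTS19-AS1 and AC008591.1 over 178 bases, so reads of these genes may not be told apart.

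In shMTHFD2 cells against shMock cells with TGF-β1, 1 of the 10 genes was called higher (ADAMTS15) and 5 lower (ADAM19, ADAMTS1, ADAMTS5, ADAMTS6 and ADAMTS19), where 4.83% of all tested genes were called higher and 8.23% lower. The median log2 difference was −0.35 over the 10 genes and 0.01 over all tested genes. Without TGF-β1, 1 was called higher (ADAMTS15) and 2 lower (ADAMTS1 and ADAMTS6), where 3.25% of all tested genes were called higher and 8.19% lower. The median was −0.21 over the 10 genes and −0.01 over all tested genes. Beside these lower levels, the smooth muscle markers CNN1 and ACTA2, the 2 of 4 listed that were tested, were also lower in shMTHFD2 cells with TGF-β1. The 4 markers summed to 881.1 and 908.4 CPM in shMTHFD2 cells with TGF-β1, against 1351 and 1386 CPM in shMock cells with TGF-β1. Without TGF-β1, CNN1 and CD68 were called lower in shMTHFD2 cells. Of the 9 fibroblast markers, THY1 was called lower and PDGFRA higher in shMTHFD2 cells under both conditions. DCN and VIM were called lower only without TGF-β1. THY1 had 337 and 337 CPM in shMTHFD2 cells with TGF-β1, against 479 and 425 CPM in shMock cells with TGF-β1. The PDGFRA call was lost under 7 alternatives with TGF-β1 and 3 without, the DCN call under 5 and the VIM call under 6. The part of these markers in the members' differences was not tested. Fold changes also moved with the GC content of a gene: Spearman rho over genes was 0.329 between the lines with TGF-β1 and −0.143 without, and 0.0232 for TGF-β1 in shMTHFD2 cells and −0.285 in shMock cells. With offsets for GC and length, all 10 TGF-β1 calls of each line stood as before. Between the lines with TGF-β1, ADAMTS15 was then at 2.31 and ADAM19 at −0.47 on the log2 scale, and ADAMTS12 (edgeR adjusted p = 0.0474, 0.0474 to 0.4 over all alternatives) and ADAMTS14 (0.0417, 0.0417 to 0.803) were called lower as well.

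**Figure D4:**
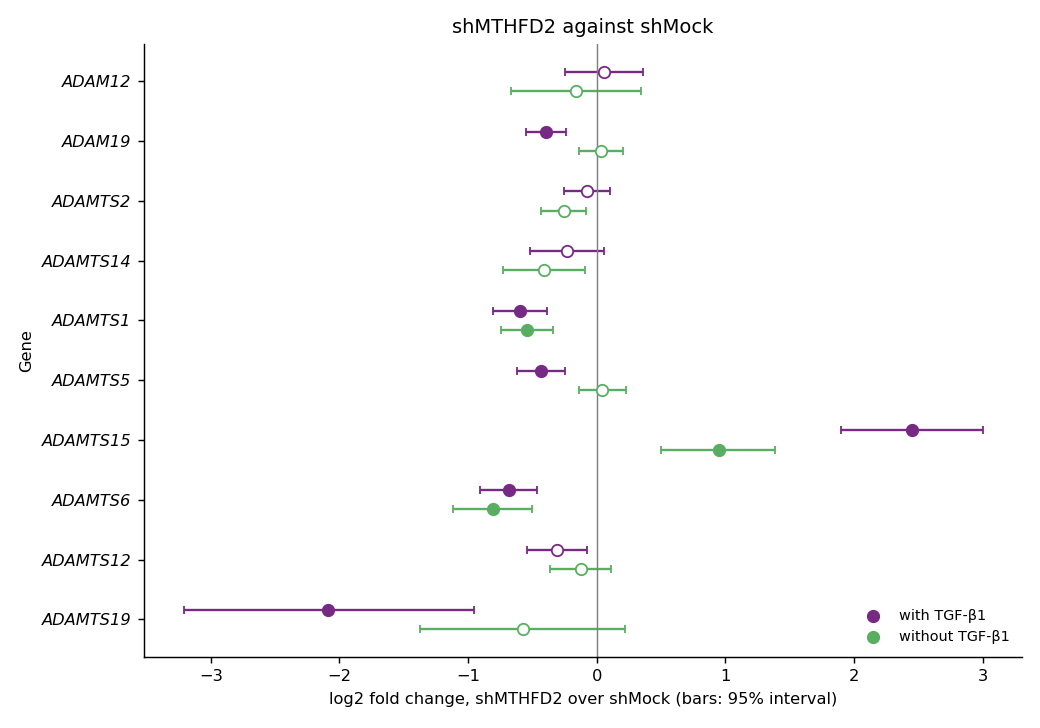
For each gene the point gives the log2 fold change of shMTHFD2 over shMock with its 95% interval from the fit, with TGF-β1 above without, and filled points passed the test. ADAMTS15 lies right of 0 under both conditions (2.45 and 0.95), ADAMTS1 and ADAMTS6 lie left of 0 under both, and ADAM19 and ADAMTS5 are filled only with TGF-β1.

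Whether the TGF-β1 response itself differed between the lines was tested as an interaction, the response in shMTHFD2 cells minus that in shMock cells. None of the 10 passed in edgeR, where 0.0889% of all tested genes did, and 4 had an unadjusted p under 0.05. These were ADAM19 at −0.43 ± 0.11 on the log2 scale (SE, edgeR adjusted p = 0.157), ADAMTS5 at −0.48 ± 0.12 (0.158), ADAMTS15 at 1.50 ± 0.33 (0.121) and ADAMTS19 at −1.51 ± 0.65 (0.362). DESeq2 called ADAM19 (adjusted p = 0.00914) and ADAMTS5 (0.0237), and edgeR without a filter on low counts called ADAMTS5 (0.0224) and ADAMTS15 (0.00512). Over all alternatives the adjusted p ran from 0.00914 to 0.556 for ADAM19, 0.0224 to 0.578 for ADAMTS5, 0.00512 to 0.488 for ADAMTS15 and 0.263 to 0.91 for ADAMTS19. A difference in response between the lines was therefore not settled at this number of libraries. For ADAM12 the interval of the difference was −0.37 to 0.81, for ADAMTS1 −0.34 to 0.23 and for ADAMTS6 −0.25 to 0.50. Fold changes moved with GC content most in this comparison (Spearman rho 0.473 over genes). With offsets for GC and length the difference was −0.51 for ADAM19, −0.33 for ADAMTS5 and 1.31 for ADAMTS15 on the log2 scale, and again none of the 10 was called. The comparisons share libraries, and each is given by its own values.

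The 15 other tested genes of the families show where the 10 stand. Of the 10 other ADAM genes tested, none was called higher and 5 lower with TGF-β1 in shMTHFD2 cells, and 1 higher and 5 lower in shMock cells. The higher one, ADAM17 (0.26 ± 0.09 on the log2 scale, SE), lost its call under 6 alternatives. Between the lines 1 was called higher (ADAM11, a call lost under 8 alternatives) and 2 lower (ADAM9 and ADAM10) with TGF-β1, and 0 higher and 3 lower (ADAM9, ADAM10 and ADAM15) without. The ADAM9 call was lost under 2 alternatives with TGF-β1 and under 7 without, and the ADAM15 call under 10, while the ADAM10 calls held under all. ADAM10, the main constitutive sheddase of Notch and cadherins, fell by 0.68 on the log2 scale in shMTHFD2 cells (edgeR adjusted p = 2.07e-05) and by 0.56 in shMock cells (edgeR adjusted p = 9.14e-05). ADAM10 had 121 and 121 CPM in shMTHFD2 cells with TGF-β1, against 236 and 210 CPM in shMock cells with TGF-β1. That difference was −0.89 ± 0.09 on the log2 scale (SE, edgeR adjusted p = 1.95e-05), and without TGF-β1 it was −0.77 ± 0.08 (edgeR adjusted p = 3.86e-05). ADAM33, a gene studied in asthma, was at −0.48 with TGF-β1 in shMTHFD2 cells (edgeR adjusted p = 0.00743) and −0.64 in shMock cells (0.000624). Its call in shMTHFD2 cells was lost without replicate 2 with TGF-β1. Between the lines it was not called, except that it was higher with TGF-β1 when replicate 2 of shMock cells with TGF-β1 was left out. ADAM12 and ADAM19 were the ADAM genes called higher with TGF-β1 in both lines.

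Of the 5 other ADAMTS genes tested, ADAMTS7 and ADAMTS10 were called higher with TGF-β1 in both lines and none lower. ADAMTS7, which like ADAMTS12 cleaves COMP, rose by 0.98 ± 0.09 on the log2 scale in shMTHFD2 cells (SE, edgeR adjusted p = 9.33e-07) and by 0.77 ± 0.09 in shMock cells (edgeR adjusted p = 9.9e-06). The ADAMTS10 calls were less steady: in shMTHFD2 cells (0.47 ± 0.15, edgeR adjusted p = 0.0322) it was lost with library totals and without any 1 of the 4 shMTHFD2 libraries, and in shMock cells (0.57 ± 0.15, edgeR adjusted p = 0.00875) without replicate 2 with TGF-β1. Between the lines 0 of the 5 were called, with or without TGF-β1, though ADAMTS7 was called higher with TGF-β1 when library totals replaced the scaling factors. The 4 members that fell with TGF-β1 were thus the only ADAMTS genes, of 13 tested, called lower by it in either line, with the exception of ADAMTS13 in shMock cells when replicate 2 with TGF-β1 was left out. A further 6 ADAMTS genes and 9 ADAM genes were below the filter, among them ADAMTS4, at 0 counts in 7 of 8 libraries.

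**Figure D5:**
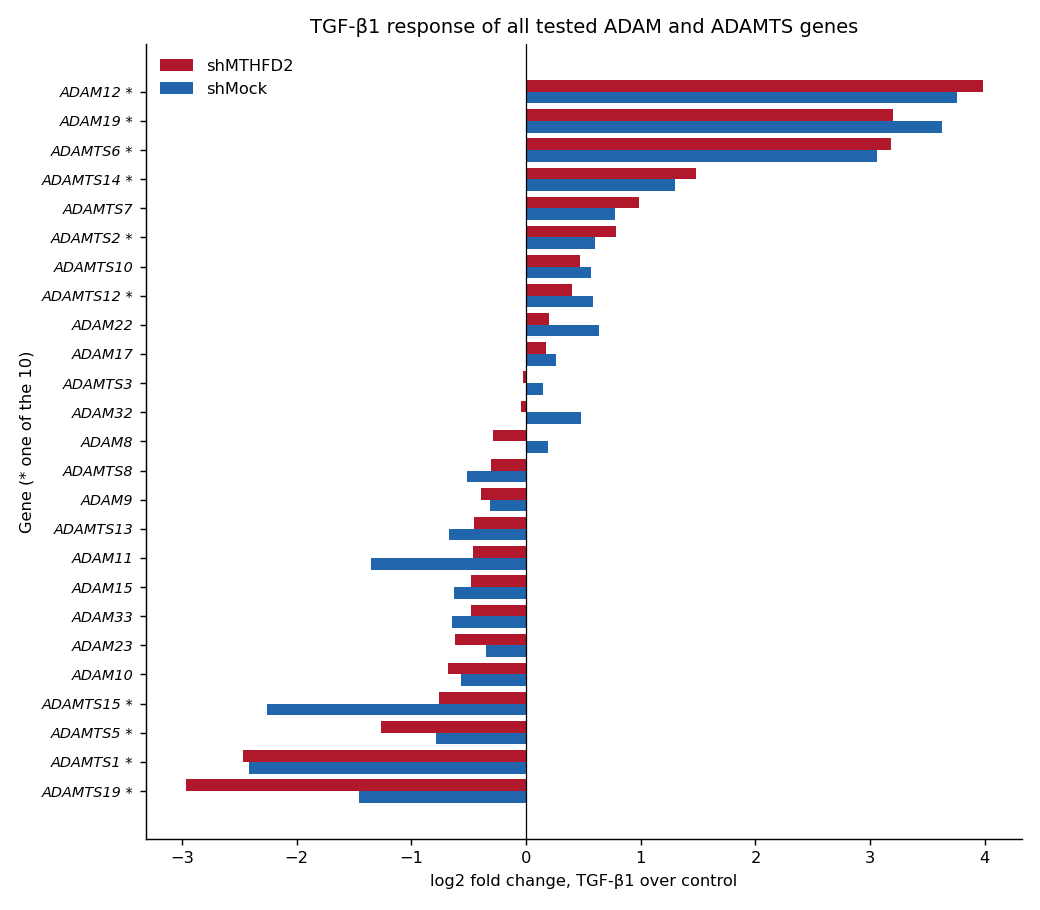
Bars give the log2 fold change of TGF-β1 over control for the 25 ADAM and ADAMTS genes tested, shMTHFD2 above shMock, with the 10 members starred. Ordered by the shMTHFD2 value, the 4 genes at each end are members, from ADAM12 (3.98 and 3.76) to ADAMTS19 (−2.97 and −1.46), and the others range from −1.36 (ADAM11, shMock) to 0.98 (ADAMTS7, shMTHFD2).

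Inhibitors and clearance factors of these proteases were read from a list of 9 genes, all tested. In shMTHFD2 against shMock cells 0 were called higher and 2 lower, with and without TGF-β1, namely TIMP3 and SDC4. Over all tested genes 4.83% were called higher and 8.23% lower with TGF-β1, and 3.25% higher and 8.19% lower without. These shares, and those given above for TGF-β1 in each line, are the background of the counts that follow. TIMP3, the matrix-bound inhibitor of ADAM and ADAMTS proteases, had 102 and 103 CPM in shMTHFD2 cells with TGF-β1, against 247 and 209 CPM in shMock cells with TGF-β1. The log2 difference was −1.15 ± 0.09 (SE, edgeR adjusted p = 3.85e-06), and −0.85 ± 0.09 without TGF-β1 (3.06e-05). SDC4, a syndecan that helps to hold some ADAMTS enzymes at the cell surface, was at −0.85 ± 0.11 and −0.90 ± 0.11. With TGF-β1, 3 of the 9 rose and 2 fell in each line. Higher were TIMP1, TIMP3 and FN1 in shMTHFD2 cells and TIMP3, LRP1 and FN1 in shMock cells, and lower were RECK and SDC4 in both. The TIMP1 call was lost under 2 alternatives, the LRP1 call under 3 and the RECK call in shMTHFD2 cells under 1. TIMP3 was at 0.80 ± 0.09 in shMTHFD2 cells and 1.11 ± 0.09 in shMock cells. TIMP3 thus rose with TGF-β1, as did 6 of the 10 members, while RECK and the other 4 members fell.

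Among substrates, 8 of 13 tested ADAMTS substrates were called higher and 2 lower with TGF-β1 in shMTHFD2 cells, and 9 higher and 2 lower in shMock cells. Those called lower were FBN2 and LUM in both lines, and the LUM call was lost under 10 alternatives in each. VCAN, which encodes versican, a target of ADAMTS1, ADAMTS5 and ADAMTS15, rose by 3.32 ± 0.12 on the log2 scale in shMTHFD2 cells and by 3.88 ± 0.12 in shMock cells (SE, edgeR adjusted p = 2.65e-11 and 4.63e-12). COL5A1, a fibrillar collagen chain with an amino-terminal propeptide, rose by 1.81 ± 0.10 in shMTHFD2 cells and by 1.73 ± 0.10 in shMock cells. Versican RNA thus rose in the same libraries in which ADAMTS1, ADAMTS5 and ADAMTS15 RNA fell, and COL5A1 rose in those in which ADAMTS2 and ADAMTS14 rose. The other tested collagen chains differed. COL1A1 and COL1A2 were called higher in both lines and COL3A1 in neither. COL5A2 was called higher in shMock cells, and in shMTHFD2 cells only under 5 alternatives. Between the lines 0 of 13 were called higher and 1 lower with TGF-β1, and 1 higher and 2 lower without, where 8.23% and 8.19% of all tested genes were called lower. The higher one was VCAN (0.46 ± 0.12 on the log2 scale, SE, edgeR adjusted p = 0.0192), a call lost without replicate 2 of either control group. The lower ones without TGF-β1 were THBS1 and DCN, and the DCN call was lost under 5 alternatives. THBS1, which encodes the TGF-β-activating thrombospondin 1, had the largest difference among those called, at −1.28 ± 0.10 with TGF-β1 (edgeR adjusted p = 3.85e-06) and −1.14 ± 0.10 without (6.18e-06).

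Of 14 tested substrates of ADAM sheddases, 1 was called higher and 5 lower in shMTHFD2 than in shMock cells with TGF-β1, and 0 higher and 5 lower without. The lower ones were EREG, CD44, SDC1, IGFBP3 and IGFBP5 in both, beside 8.23% and 8.19% of all tested genes called lower. With TGF-β1 the SDC1 call was lost under 5 alternatives and the EREG call under 4, and without TGF-β1 the SDC1 call under 3. CD44, the hyaluronan receptor, was at −1.12 ± 0.09 with TGF-β1 and −0.98 ± 0.09 without. IL6R, the interleukin 6 receptor whose soluble form is released by shedding, was at 1.11 ± 0.14 with TGF-β1 (SE, edgeR adjusted p = 0.000183). With TGF-β1, 1 was called higher and 5 lower in shMTHFD2 cells, and 1 higher and 8 lower in shMock cells. The largest called falls were those of IL6R, at −2.63 on the log2 scale in shMTHFD2 cells and −3.59 in shMock cells. JAG1 came next, at −1.12 and −1.24. The gene that rose was IGFBP3, an insulin-like growth factor binding protein cut by ADAM12, at 3.96 ± 0.09 in shMTHFD2 cells and 3.56 ± 0.09 in shMock cells. IGFBP3 and ADAM12 thus both rose, while IGFBP5, the other binding protein listed, did not. In shMTHFD2 cells IGFBP5 had 415 and 436 CPM with TGF-β1, against 484 and 498 CPM in control, and was not called. In shMock cells it was called lower, at 625 and 578 CPM against 930 and 829 CPM.

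For maturation and secretion 15 of 17 listed genes were tested. In shMTHFD2 cells 6 were called higher and 4 lower with TGF-β1, and in shMock cells 4 higher and 3 lower. Several of the shMTHFD2 calls were unsteady: TSPAN14 was lost under 7 alternatives, TSPAN15 under 6 and PCSK7 under 5. Those of POFUT2, RHBDF1 and TSPAN5 were lost under 1 each. In shMock cells the POFUT2 call was lost under 3. FURIN, the proprotein convertase that removes the inhibitory prodomain of ADAM and ADAMTS enzymes, rose by 0.64 ± 0.08 on the log2 scale in shMTHFD2 cells and by 0.60 ± 0.08 in shMock cells (SE, edgeR adjusted p = 2.81e-05 and 4.4e-05). TSPAN10 was called lower under all alternatives, at −1.15 ± 0.14 in shMTHFD2 cells and −1.35 ± 0.14 in shMock cells. RHBDF1 was called lower in both lines, at −0.63 ± 0.10 in shMock cells. Between the lines 0 of 15 were called higher, and 1 lower with TGF-β1 (PDIA3) and 2 lower without (PDIA3 and PLOD1), beside 8.23% and 8.19% of all tested genes called lower. None of these calls was steady: that of PDIA3 was lost under 4 alternatives in each condition and that of PLOD1 under 8. In the list of ADAMTS-like proteins, which lack the protease domain, 4 were tested and THSD4 was lower in all 4 comparisons within lines and between them. ADAMTSL4 and ADAMTSL5 were also called lower with TGF-β1 in shMock cells. ADAMTSL5 was at −0.54 on the log2 scale there (edgeR adjusted p = 0.000887), and the ADAMTSL4 call was lost under 3 alternatives. THSD4, a microfibril-associated protein, was at −0.55 ± 0.08 in shMTHFD2 against shMock cells with TGF-β1 and −0.57 ± 0.08 with TGF-β1 in shMTHFD2 cells (SE, edgeR adjusted p = 0.000511 and 8.07e-05).

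Over the 8 libraries, the protein-coding genes whose log2(CPM + 1) followed that of ADAMTS15 most closely were ADGRA3, IQCE and OXA1L (Pearson r 0.997, 0.994 and 0.989). For ADAMTS19 they were PRRG1, PPP4R4 and CD55 (0.995, 0.994 and 0.993). The 8 libraries form 4 groups, the best matches were taken from all tested genes, and these values are a description of likeness only.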

How the data were processed

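RNA from 8 libraries of MRC5 cells was analysed, 2 in each of 4 groups. The deposited table holds whole-number counts per Ensembl gene ID, although its name speaks of FPKM. GRCh38, STAR 2.7.1a and DESeq2 1.32.0 appear, with no role, per the submitters' processing notes. The read counter, annotation and use of strand were not given in the sources used here. Without stated strand, overlapping genes may share reads.

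Symbols were found for 60437 of 60666 IDs, and positions for 58420 in GENCODE release 29. The filter was a mean over the 8 libraries of 1 CPM or more, which kept 13493 genes. edgeR 4.0.16 in R 4.3.3 fitted 1 quasi-likelihood model with a mean per group, TMM factors from 0.914 to 1.07 and 4 residual degrees of freedom. It gave 5 comparisons, each Benjamini-Hochberg adjusted over all tested genes at 0.05. The common biological coefficient of variation was 8.79%. SE is the log2 fold change divided by the root of F. Alternatives were median-of-ratios factors, library totals, no filter, DESeq2 1.42.0, a replicate block, GC and length offsets, the 4 libraries compared alone, and leaving out each library.

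The members and lists were chosen with earlier results of these data known. Named from each list were up to 2 higher and 2 lower genes of largest change per comparison, or the 2 most abundant where none passed, beside MTHFD2 and the members; the text gives a part of these, with the 3 genes most like the members of highest and lowest knockdown difference. ADAM15 and others with unsteady calls are counted without values. Some genes outside this rule are named for a call, a lost call or the lack of a call. ADAMTSL6 in the list of ADAMTS-like proteins is an alias of THSD4.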

Additional observations from a re-analysis of the deposited data

How the results depend on the processing

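Of 739 recomputed values, 704 kept their direction and side of the threshold, 15 lost a call, 11 gained one and 9 changed sign. None of those 9 was called: ADAMTS2 between the lines with TGF-β1 at 0.0153 with library totals, ADAMTS5 between the lines without TGF-β1 at −0.0222 and the ADAMTS14 interaction at −0.0408 with GC and length offsets. Leaving out each library gave −0.0435 to 0.171 for ADAM12 and, without TGF-β1, −0.413 to 0.0569 for ADAM12 and −0.0438 to 0.155 for ADAMTS5 between the lines. The interaction then ran from −0.0181 to 0.452 for ADAM12, −0.215 to 0.0667 for ADAMTS1 and −0.00412 to 0.33 for ADAMTS14. Interaction calls among the 10 genes numbered 2 without the filter, 2 in DESeq2 and 0 to 1 on leaving out a library (1 without replicate 1 of shMTHFD2 control, ADAMTS5, adjusted p 0.0329). The cause was not tested.

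Over all genes, 1762 calls between the lines with TGF-β1 became 841 or 1001 without replicate 1 or 2 of shMTHFD2 cells with TGF-β1 and 855 without replicate 1 of shMock cells with TGF-β1. Without TGF-β1, 1543 became 585 or 973 without replicate 2 or 1 of shMock control and 637 without replicate 2 of shMTHFD2 control. The 12 interaction calls became 321 without the filter, 105 in DESeq2, 18 with GC and length offsets and 3 to 192 on leaving out a library. Library totals moved the median log2 change with TGF-β1 to −0.12 in shMTHFD2 and −0.159 in shMock cells, and the split to 1338 higher and 717 lower between the lines with TGF-β1, 755 and 740 without, 1222 and 2455 for TGF-β1 in shMTHFD2 cells and 1570 and 3932 in shMock cells.

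Same-numbered libraries did not deviate together (correlations −0.0203 to 0.0687), so no shared replicate effect was seen. With 2 libraries a group this cannot show whether same-numbered libraries were made together. With the replicate block the members called stayed at 6, 3, 10, 10 and 0 in the 5 comparisons. Depth limits ADAMTS19 with TGF-β1, at 4 to 20 counts per library.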
